A study of Mus musculus with 3 samples.

Results

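TRBV4, the mouse TCR beta V gene whose older name is Tcrb-V10 (Vβ10), was described across 3 TCR libraries made from CD4, CD8 and double negative (DN) T cells. Its clonotypes were chosen by the V gene that the alignment program gave as the best match, together with a TRBJ gene, so the members were defined by their measured sequence. The rule found 3741 TRBV4 clonotypes among 44807 TRB clonotypes in CD4, 3197 among 81212 in CD8 and 1827 among 41948 in the DN library. Summed over the libraries these were 8765 of 167967, and 8168 of 154480 distinct ones after clonotypes found in several libraries were counted once. A clonotype here is a unique nucleotide sequence of the CDR3, the stretch that runs from the last cysteine of the V gene to the phenylalanine of the J gene.

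All 3 subsets came from the spleen of 1 MRL.lpr mouse aged 16 weeks, so the lpr mutation of Fas, the strain and the age were common to every group and no healthy control was analysed. Flow cytometry separated the subsets, and each library was built from the mRNA of 1000000 sorted cells. TCR libraries hold no RNA of Cd4, Cd8a or other marker genes, so the labelled subsets could not be checked against markers. With 1 library per subset there was no replicate check, and a test on 2 libraries compares those libraries, not the subsets in general. The TRB reads numbered 133667 in CD4, 150874 in CD8 and 194290 in the DN library. Since the reads carried no molecular identifiers and came through PCR, they do not count molecules, and the 95% Wilson intervals given here cover counting error only, and fewer cells with a receptor and less TCR mRNA per cell cannot be told apart.

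A TCR beta chain is assembled in the thymus from a V, a D and a J gene, with bases trimmed from the ends and others added between them, so that many joins are out of frame or carry a stop codon. A T cell can carry such a nonproductive join on its other allele and still express a working receptor. The TRB locus has a TRBD1 gene followed by the TRBJ1 cluster, and then a TRBD2 gene followed by the TRBJ2 cluster. Trbv4 lies between Trbv3 and Trbv5 on mouse chromosome 6. DN T cells, which express an αβ TCR but neither CD4 nor CD8, accumulate in mice with the lpr mutation.

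The V end of the TRBV4 CDR3 is given first, because clonotypes of each reading frame class are matched to it further on. Of the 8765 TRBV4 clonotypes, 8676 (99.0%) began with the same 6 bases. The commonest continuation among the out-of-frame TRBV4 clonotypes, in which each added base was held by at least 50% of those matching so far, is shown here with a stop codon, TAA, in capitals.
commonest TRBV4 end: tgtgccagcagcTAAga
This codon is codon 5 of the CDR3, at bases 13 to 15. The genomic sequence of Trbv4 was not used here, so this end was read from the clonotypes themselves.

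The 5 TRBV4 clonotypes largest in the CD4 library, in the CD8 library or in the DN library, 10 in all, are called clonotypes A to J. They are shown because the clone sizes described further on are theirs. Capitals mark the bases between the part that matched the commonest V end and the part that matched the commonest end of the J gene.
clonotype A: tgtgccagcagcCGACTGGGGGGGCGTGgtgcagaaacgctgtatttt
clonotype B: tgctgagcagttcttc
clonotype C: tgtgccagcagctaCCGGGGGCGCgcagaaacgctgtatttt
clonotype D: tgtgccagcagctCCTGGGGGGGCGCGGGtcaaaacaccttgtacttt
clonotype E: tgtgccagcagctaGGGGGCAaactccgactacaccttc
clonotype F: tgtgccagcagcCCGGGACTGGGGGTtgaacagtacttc
clonotype G: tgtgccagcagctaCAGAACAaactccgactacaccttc
clonotype H: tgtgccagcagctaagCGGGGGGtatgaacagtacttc
clonotype I: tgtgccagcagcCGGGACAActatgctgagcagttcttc
clonotype J: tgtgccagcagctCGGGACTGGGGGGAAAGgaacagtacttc
Clonotypes A, C, D, F, G, I and J were in frame. Clonotype B had only 16 bases, lacked the V start, and matched the end of 86.3% of all in-frame TRBJ2-1 clonotypes. In clonotype E codon 5 was TAG, a stop without a frameshift, and clonotype H was out of frame and ran through the TAA of the V end.

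TRBV4 took up a larger share of the CD4 library than of the other two. Its clonotypes were 8.35% (8.10 to 8.61) of TRB clonotypes in CD4, 3.94% (3.81 to 4.07) in CD8 and 4.36% (4.16 to 4.56) in the DN library. The gene was 6th of the V genes by number of clonotypes in CD4, 10th in CD8 and 9th in the DN library. The share in CD8 was 0.472 times that in CD4 (95% interval 0.450 to 0.494, adjusted p = 6.68e-225, Fisher's exact test), and the share in DN was 0.522 times that in CD4 (0.494 to 0.551, adjusted p = 4.94e-129). Fisher's exact test (two-sided) was applied to clonotypes here, with Benjamini-Hochberg adjustment over all 15 such tests of TRBV4. Among the 14 V genes with at least 200 in-frame clonotypes in each library, 3 had a lower ratio of CD8 to CD4 than TRBV4, and 3 had a lower ratio of DN to CD4.

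The order of DN and CD8 T cells depended on the reading frame and on the unit counted. Over all clonotypes the TRBV4 share was 1.11 times as high in DN as in CD8 (1.05 to 1.17, adjusted p = 0.000643 by Fisher's exact test). Among in-frame clonotypes without a stop codon it was 3.67% in CD8 and 3.71% in the DN library, a ratio of 1.01 (adjusted p = 0.858, exact test), while CD4 T cells stood at 8.22%. Among nonproductive clonotypes the TRBV4 share was 9.93% (8.98 to 11.0) in CD4, 9.16% (8.31 to 10.1) in CD8 and 10.9% (9.95 to 11.9) in the DN library. DN lay highest and CD8 lowest there, and these nonproductive shares were not tested against each other. TRBV4 thus held a larger part of the nonproductive than of the in-frame clonotypes in each library.

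**Figure D1:**
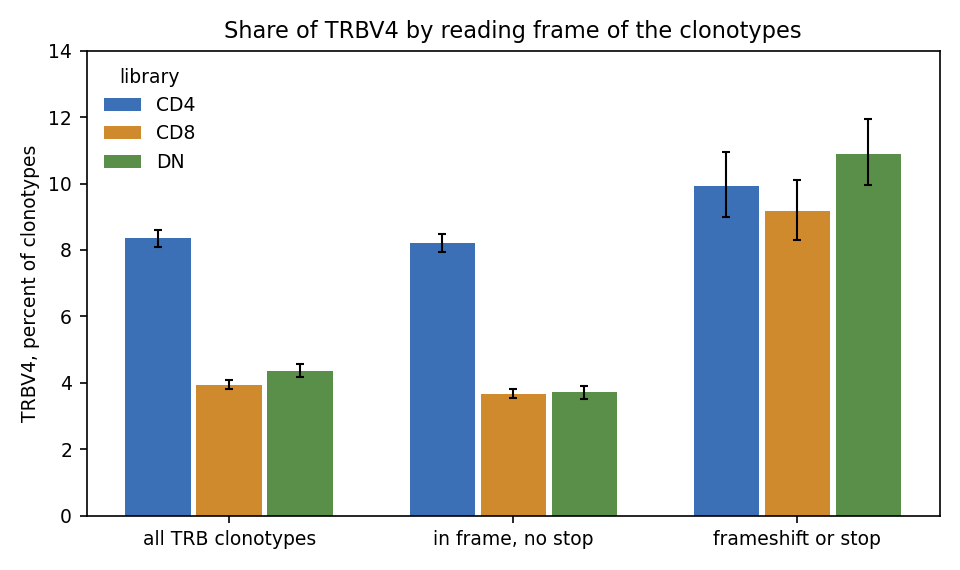
TRBV4 clonotypes as a percent of TRB clonotypes (vertical axis) in the CD4, CD8 and DN libraries, over all clonotypes, those in frame without a stop, and those with a frameshift or stop. Bars are the share in 1 library each and lines are 95% Wilson intervals. In-frame shares are 8.22% in CD4 against 3.67% in CD8 and 3.71% in the DN library. Nonproductive shares are 9.93%, 9.16% and 10.9% in the CD4, CD8 and DN libraries. Their intervals overlap, which does not show that the shares are alike.

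Counted in reads, TRBV4 had 11282 reads in CD4 (8.44% of TRB reads), 5319 in CD8 (3.53%) and 7105 in the DN library (3.66%). In-frame reads alone gave 8.15%, 3.22% and 3.03% for the CD4, CD8 and DN libraries, so that DN then lay below CD8, at a ratio of 0.940. When the largest in-frame TRBV4 clonotype of each library was left out, the values were 7.89%, 3.08% and 2.32%, and the ratio of DN to CD8 was 0.754. Only the position of CD4 T cells above both others held in each of these counts of all or in-frame reads. Nonproductive reads alone gave 13.74% in CD4, 11.33% in CD8 and 16.35% in the DN library, so that DN then lay highest.

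TRBV4 clonotypes were less often in frame than those of the other V genes, counted as one pool, with the widest gap in the DN library. In CD4 T cells 90.7% of TRBV4 clonotypes were in frame against 92.3% of the others (adjusted p = 0.000736, exact test), a gap that did not pass with at least 2 reads per clonotype (-0.924 percentage points, adjusted p = 0.176). In CD8 T cells the values were 88.6% and 95.4% (adjusted p = 7.9e-51), and in the DN library 77.6% and 91.7% (adjusted p = 2.12e-70, all by two-sided Fisher's exact test). By single V gene, TRBV31 (83.8%) and TRBV14 (87.7%) were in frame less often than TRBV4 in CD4, while TRBV4 had the lowest value of the 14 V genes in CD8 and in the DN library, where TRBV31 followed with 91.4% and 82.2%. Frameshifts made up 7.94% (7.11 to 8.85) of TRBV4 clonotypes in CD4, 9.26% (8.30 to 10.3) in CD8 and 18.5% (16.7 to 20.3) in the DN library, where the other V genes had 7.33%, 4.37% and 7.95%. In reads, the nonproductive clonotypes of TRBV4 in the DN library held 1157 reads (16.3%) with a frameshift and 340 (4.79%) with a stop alone. Clonotype B, which lacks the V start, had 323 of the former and clonotype E 192 of the latter, and without them the shares were 12.3% and 2.14%.

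Stop codons without a frameshift were a larger share of TRBV4 clonotypes than of those of other V genes. They occurred in 51 of its clonotypes in CD4 (1.36%), 68 in CD8 (2.13%) and 73 in the DN library (4.0%), against 0.358%, 0.256% and 0.396% of the clonotypes of other V genes. Over clonotypes without a frameshift, the stop share was 1.48%, 2.34% and 4.90% for TRBV4. The highest value among the 13 other V genes was 0.751% in CD4, 0.429% in CD8 and 0.853% in the DN library. In CD4 the interval of TRBV4 (1.13 to 1.94) overlapped that of TRBV14 (0.292 to 1.91, 4 of 533 clonotypes). These shares were noticed in the data and are given without a test.

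**Figure D2:**
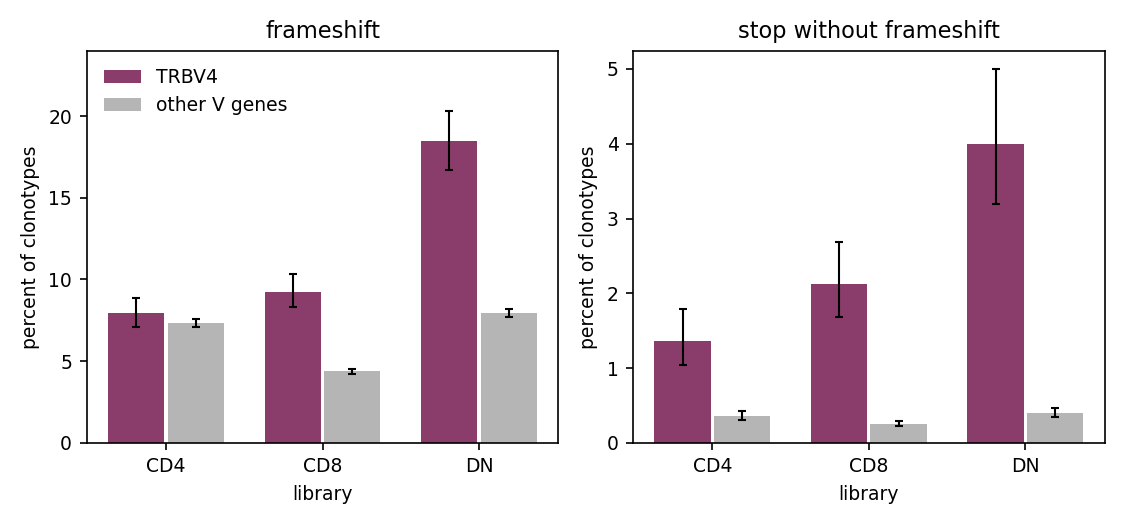
Percent of TRBV4 clonotypes (purple) and of clonotypes with other V genes (grey) that had a frameshift (left) or a stop codon without a frameshift (right) in each library, with 95% Wilson intervals. The axes differ in scale. In the DN library TRBV4 reaches 18.5% for frameshifts and 4.0% for stops, against 7.95% and 0.396% for the other V genes.

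The TAA of the TRBV4 end was present in most of the stop class. Of TRBV4 clonotypes with a stop alone, 37 of 51 (72.5%) in CD4, 52 of 68 (76.5%) in CD8 and 58 of 73 (79.5%) in the DN library matched the V end through the TAA. Among frameshifted ones 89 of 297 (30.0%), 95 of 296 (32.1%) and 117 of 337 (34.7%) did so. In-frame clonotypes hold none by definition. Those that kept the first bases of that codon, t and a, can only read TAC or TAT there, both tyrosine codons, since TAA and TAG are stops. They held 246 TAC and 184 TAT in CD4, 248 and 122 in CD8, and 126 and 65 in the DN library. The matched part of the V end had a median of 12 bases in frame, 13 with a frameshift and 16 with a stop alone, in each of the 3 libraries. This order was largely set by the classes. An in-frame clonotype cannot match through base 15, where the TAA ends, and most of the stop class held this TAA. The V end itself was also taken from the frameshifted clonotypes.

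In-frame TRBV4 clonotypes were joined to the TRBJ2 cluster more often than those of other V genes, with the larger differences in CD8 and DN T cells. TRBJ2 genes made up 65.9% of TRBV4 clonotypes in CD4 against 63.2% of the others (adjusted p = 0.00204), 76.1% against 69.1% in CD8 (adjusted p = 6.76e-16) and 80.0% against 70.3% in the DN library (adjusted p = 1.25e-15, Fisher's exact test). The small difference in CD4 T cells was 0.806 percentage points when reads were counted and 1.99 with at least 2 reads per clonotype (adjusted p = 0.182, exact test).

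Counted by in-frame clonotypes, TRBJ2-7 was the J gene most used with TRBV4 in each library, with 19.0% in CD4, 25% in CD8 and 27.2% in the DN library. TRBJ2-5 followed in CD4 and CD8 with 12% and 16.6%, and it stood level with TRBJ2-1 in the DN library at 16.9% each. TRBJ2-1 held 11.2% in CD4 and 14.3% in CD8. Counted by reads, TRBJ2-3, the J gene of clonotype A, came first in the DN library with 33.1% against 21% for TRBJ2-7, and without clonotype A the order turned (12.2% and 27.6%). The least used were TRBJ1-5, with 3.18%, 1.98% and 1.83% in the CD4, CD8 and DN libraries, and then TRBJ1-6 in CD4 (3.77%) and CD8 (2.82%) and TRBJ1-3 in the DN library (2.89%).

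TRBJ1-1, the first gene of its cluster, was used differently in the CD4 library. It was used by 10.2% of TRBV4 clonotypes in CD4 (9.20 to 11.2), 4.91% in CD8 (4.17 to 5.76) and 4.66% in the DN library (3.68 to 5.88). With other V genes it held 9.96%, 8.77% and 8.95%. TRBV4 therefore used TRBJ1-1 about as often as the other V genes in CD4 T cells (ratio 1.02) and less often in CD8 (0.560) and DN T cells (0.520). TRBJ2-5 stood out in the other direction in the DN library, at 1.45 times its level with other V genes. TRBJ1-1 and TRBJ2-5 were singled out after their values were seen, and no test was made on them.

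**Figure D3:**
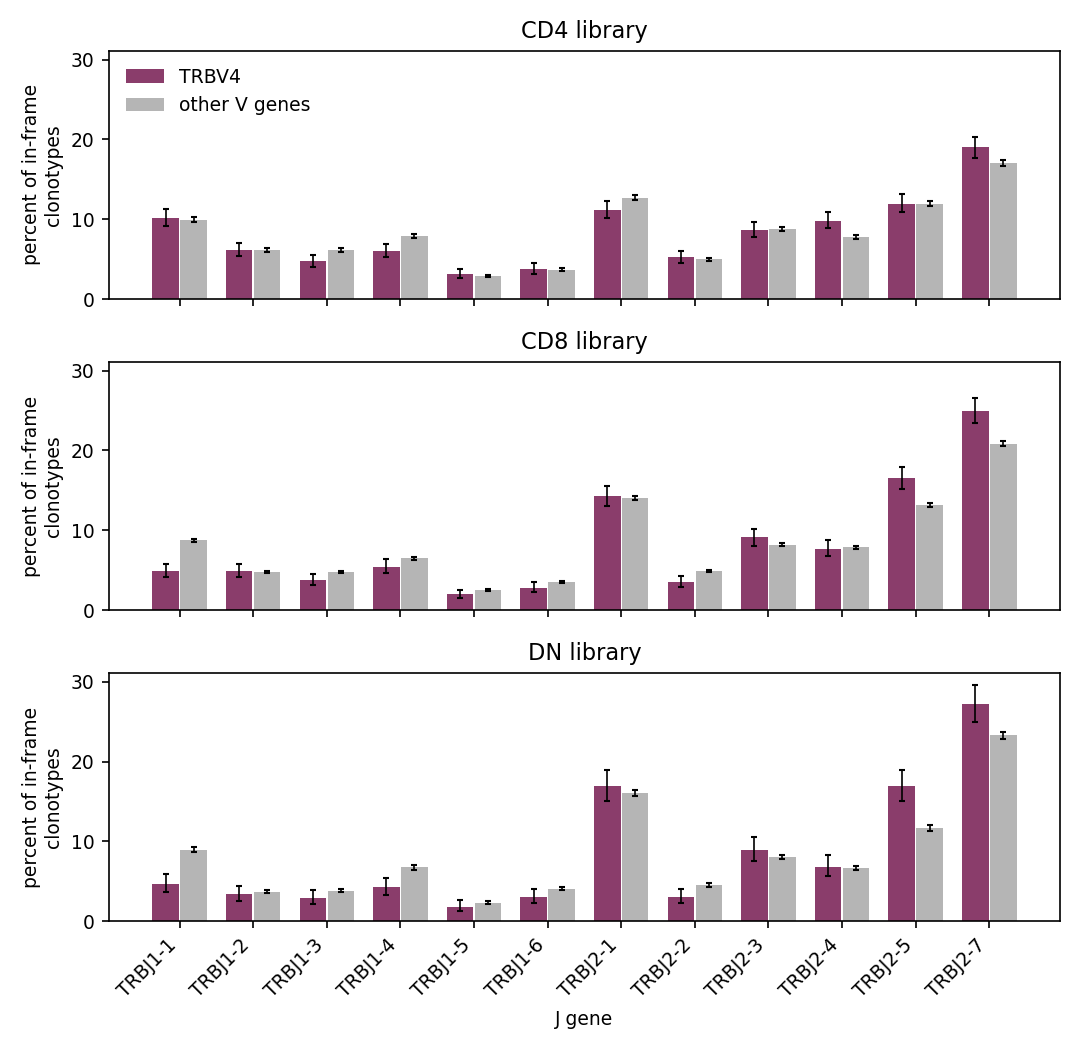
Percent of in-frame clonotypes joined to each J gene in the CD4, CD8 and DN libraries, for TRBV4 (purple) and for all other V genes (grey), with 95% Wilson intervals. TRBJ1-1 is at 4.91% and 4.66% for TRBV4 in CD8 and DN T cells, below the other V genes, and at 10.2% in CD4 T cells, where both bars are alike.

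The D gene differed in the same libraries. Among in-frame clonotypes with an assigned D gene, TRBD2 was found in 43.3% of TRBV4 clonotypes and 38.8% of the others in CD4 (adjusted p = 7.04e-06), 59.6% and 42.7% in CD8 (adjusted p = 1.58e-57), and 66.6% and 51.1% in the DN library (adjusted p = 2.81e-26, Fisher's exact test). In CD4 T cells the sign turned when reads were counted, to a small difference of -0.508 percentage points. No D gene was assigned to 19.3%, 16.8% and 13.8% of TRBV4 clonotypes in the CD4, CD8 and DN libraries, against 27.1%, 26.6% and 23.7% of the others.

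The higher use of TRBD2 was also seen within the TRBJ2 cluster. There the percent was taken over all in-frame clonotypes, also those without an assigned D gene. TRBD2 was assigned to 50.8% of TRBV4 clonotypes in CD4, 63.7% in CD8 and 70.3% in the DN library. Other V genes had 41.5%, 43.1% and 52.8%. Part of this gap lies in clonotypes without a D gene, which were 16.4%, 13.9% and 10.8% for TRBV4. For other V genes they were 23.1%, 22.7% and 19.5%. Since TRBD2 lies downstream of the TRBJ1 genes, ordinary deletion does not join it to them. A TRBD2 was nevertheless assigned to 49 of 1156 TRBV4 clonotypes with a TRBJ1 gene in CD4 (4.24%), 31 of 677 in CD8 (4.58%) and 18 of 284 in the DN library (6.34%). With other V genes the values were 5.54%, 5.09% and 6.36%, at or above those of TRBV4.

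The V genes most like TRBV4 in J use, by the summed absolute difference over the J genes averaged over the 3 libraries, were TRBV13-2 (9.90 percentage points), TRBV2 (12.4) and TRBV17 (13.3). In the pattern of shares over the 3 libraries, measured as the distance between centred log2 shares of clonotypes, TRBV5 (0.23), TRBV26 (0.39) and TRBV2 (0.67) were nearest. TRBV5, the neighbouring gene, held 10.7% of clonotypes in CD4, 5.23% in CD8 and 6.89% in the DN library. TRBV2 was among the nearest 3 on both measures, and TRBV13-2 and TRBV5 each ranked 1 on one and 4 on the other.

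CDR3 lengths of TRBV4 were close to those of the other V genes. In-frame TRBV4 CDR3s had a mean of 13.7 residues in CD4 (SD 1.34 over 3393 clonotypes), 13.9 in CD8 (SD 1.44 over 2833) and 14.2 in the DN library (SD 1.39 over 1417), and the other V genes had 13.9, 13.9 and 14.2. The difference from other V genes was -0.193 residues in CD4 (95% interval -0.240 to -0.145), 0.00849 in CD8 (-0.0456 to 0.0626) and -0.0582 in the DN library (-0.132 to 0.0155). CDR3s of 13 to 15 residues made up 74.6%, 74.4% and 74.2% of TRBV4 clonotypes in the CD4, CD8 and DN libraries, against 72.0%, 70.6% and 69.7% of the others.

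The long end of the distribution was thinner for TRBV4 than for the pool of other V genes. CDR3s of 16 or more residues were 7.60% of TRBV4 clonotypes and 12.4% of the others in CD4, 11.5% and 13.2% in CD8, and 14.5% and 18.1% in the DN library. By single V gene, the mean ran from 13.18 residues (TRBV20) to 14.52 (TRBV5) in CD4. It ran from 12.89 (TRBV20) to 14.78 (TRBV2) in CD8, and from 13.14 to 14.98 for these genes in the DN library. TRBV4 ranked 10th, 6th and 6th of 14 from the longest in the CD4, CD8 and DN libraries. A pool of such genes can spread wider than a single gene. The shares at 13 to 15 and at 16 or more residues were not compared by single V gene. TRBV4 clonotypes with TRBD2 had means of 14.3, 14.4 and 14.6 residues in the CD4, CD8 and DN libraries. Those with TRBD1 had 13.7, 13.8 and 14, and those without a D gene 12.7, 12.7 and 12.8. Weighted by reads, the mean in the DN library was 14.7 residues, and 14.2 without clonotype A, whose CDR3 has 16 residues.

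**Figure D4:**
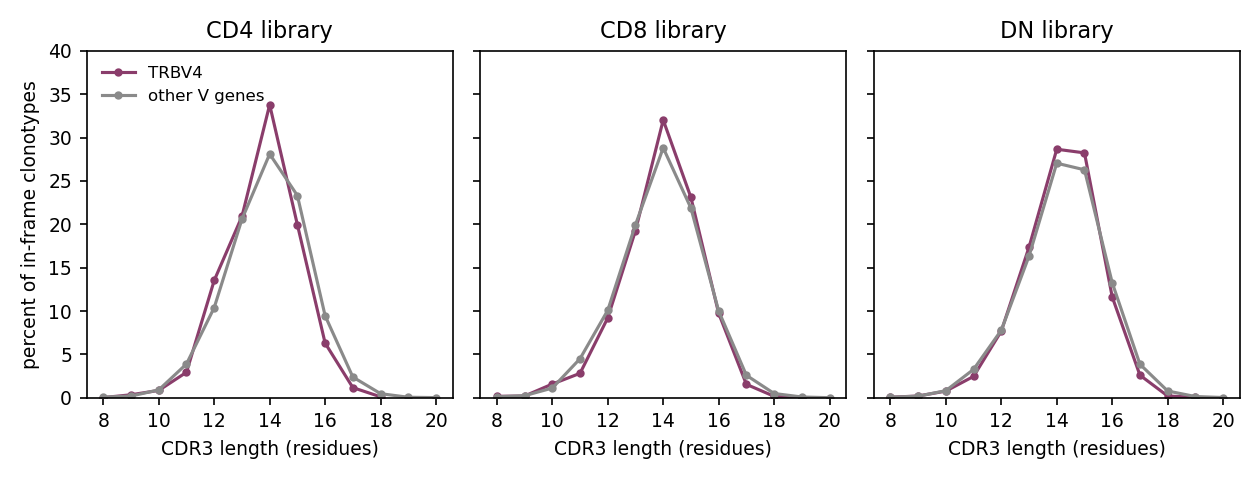
Percent of in-frame clonotypes (vertical axis) at each CDR3 length from 8 to 20 residues (horizontal axis) for TRBV4 (purple) and other V genes (grey) in the CD4, CD8 and DN libraries. Both curves peak at 14 residues in each library, and the TRBV4 curve lies below the other from 16 to 18 residues in each library.

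Clone sizes of TRBV4 were most uneven in the DN library, where clonotype A alone held 1339 of 7105 TRBV4 reads (18.8%, 18.0 to 19.8). Clonotype A had 68 reads in CD4, 212 in CD8 and 1339 in the DN library. Its share of TRB reads was 4.91 times as high in DN as in CD8 and 13.6 times as high as in CD4 T cells, and it was the 2nd largest TRB clonotype of the DN library and the 9th of the CD8 library. Within in-frame TRBV4 reads of the DN library it held 23.9%, the highest value for a largest clonotype among the 14 V genes compared, where the others reached from 2.18% to 16.3% (TRBV2). The largest in-frame TRBV4 clonotype ranked 9th of 14 by this measure in CD4 (3.42%) and 3rd in CD8 (4.53%). The V genes differed in number of clonotypes, for which no allowance was made.

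Leaving out the largest TRBV4 clonotype of each library changed the DN values most. The TRBV4 share of TRB reads in the DN library went from 3.66% to 2.99%. The number of clonotypes needed to hold 50% of TRBV4 reads went from 259 to 286 in CD4, from 701 to 753 in CD8 and from 55 to 122 in the DN library. The 10 largest clonotypes held 14.9%, 11.0% and 35.4% of TRBV4 reads in the CD4, CD8 and DN libraries, and the next 10 after the largest was left out held 12.8%, 7.64% and 21.5%. For other V genes the 10 largest held 4.52%, 4.29% and 5.18%, and 2909, 14802 and 1232 clonotypes were needed for 50% of reads, so the DN library was the most concentrated for these genes too. The TRBV4 sets also differed in size, with 3741, 3197 and 1827 clonotypes. The other V genes formed pools of 41066, 78015 and 40121 clonotypes, in which 10 clonotypes are a far smaller part. Their values therefore show the order of the libraries and do not compare their concentration with that of TRBV4.

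The mean size of a TRBV4 clonotype was 3.02 reads in CD4, 1.66 in CD8 and 3.89 in the DN library, and 2.92, 1.60 and 3.16 without the largest. For other V genes it was 2.98, 1.87 and 4.67, so TRBV4 clonotypes were smaller on average than others in the DN library. Single reads made up 62.8%, 73.0% and 60.8% of TRBV4 clonotypes. Among the 100 largest TRB clonotypes, TRBV4 had 9 in CD4, 2 in CD8 and 4 in the DN library, of which 8, 1 and 2 were in frame.

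The other large clonotypes divided between the libraries. Clonotype C (TRBJ2-3 with TRBD1) had 353 reads in CD4, 33 in CD8 and 176 in the DN library, and was the largest in-frame TRBV4 clonotype of CD4 T cells. Clonotype D (TRBJ2-4) had 233, 6 and 2 reads. Clonotype F (TRBJ2-7) had 154 reads in CD4 and 6 in CD8, and clonotype G (TRBJ1-2) had 111 and 1. Neither was read in the DN library, where 0 of 194290 reads allows a share of up to 0.00154% (3 counts), so their shares were at least 74.6-fold and 53.8-fold higher in CD4 T cells. These 3 clonotypes, D, F and G, were large in CD4 T cells alone.

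Clonotypes E and H, both nonproductive, were largest in the DN library. Clonotype E had 8 reads in CD4, 24 in CD8 and 192 in the DN library, and clonotype H had 3, 4 and 104. Clonotype I (TRBJ2-1) had 35 reads and clonotype J (TRBJ2-7) 32, all in CD8 T cells, so their shares there were at least 15-fold and 13.7-fold higher than in DN and at least 10.3-fold and 9.45-fold higher than in CD4 T cells by the same bound. Clonotype B, the sequence without a V start, had 357, 164 and 323 reads and was the largest TRBV4 entry of the CD4 library.

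**Figure D5:**
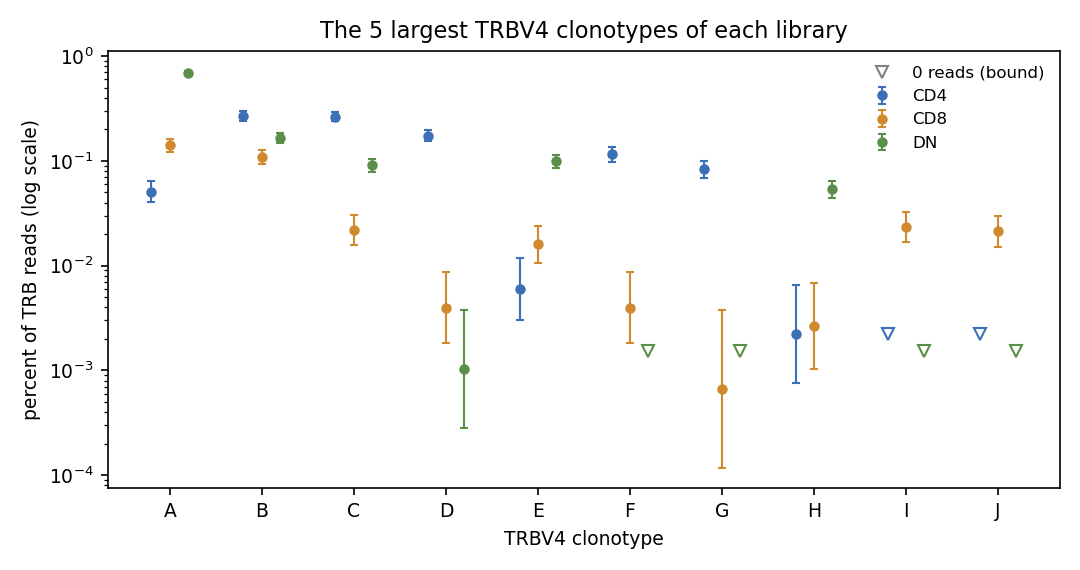
Share of TRB reads (vertical axis, percent, log scale) of TRBV4 clonotypes A to J in the CD4, CD8 and DN libraries. Points are 1 library each with 95% Wilson intervals, and open triangles mark 0 reads, drawn at the bound of 3 counts. Clonotype A is highest in the DN library, D, F and G in CD4 T cells, and I and J were read in CD8 T cells alone.

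Over all TRBV4 clonotypes with at least 20 reads in 2 libraries together, the count whose share was at least 4 times higher in one of them was set beside the same percent for all TRB clonotypes. Between DN and CD8, 25 of 44 TRBV4 clonotypes (56.8%) were higher in DN, where all clonotypes gave 62.6%, and 4 of 44 (9.09%) were higher in CD8, where all gave 8.48%. These lay near the background. Between DN and CD4, 30 of 91 (33.0%) were higher in DN against a background of 64.4%, and 57 of 91 (62.6%) were higher in CD4 against 31.9%. Between CD8 and CD4, 5 of 68 (7.35%) were higher in CD8 against 23.3%, and 60 of 68 (88.2%) were higher in CD4 against 66% of all clonotypes. A clonotype can pass the minimum of 20 reads through 1 library alone, and TRBV4 had more clonotypes in CD4, so no direction is read from these counts.

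Most in-frame TRBV4 clonotypes were found in 1 library, as were most of those with other V genes. Of the latter, 13.8% in CD4, 12.2% in CD8 and 24.1% in the DN library were found in another library. Of 7126 distinct ones, matched by the nucleotide CDR3, V gene and J gene, 3113 were found in CD4 alone, 2486 in CD8 alone and 1076 in DN alone. CD8 and DN T cells alone shared 171, CD4 and CD8 shared 110, CD4 and DN shared 104, and 66 were in all 3 libraries. These 66 were 1.95%, 2.33% and 4.66% of in-frame TRBV4 clonotypes in the CD4, CD8 and DN libraries. For other V genes the share in all 3 was 4.76%, 2.43% and 4.91%. With those in all 3 libraries included, CD8 and DN shared 237 in-frame TRBV4 clonotypes, CD4 and CD8 shared 176, and CD4 and DN shared 170. For other V genes these counts were 7245, 3625 and 3416, of which 1805 were in all 3 libraries. The pair of CD8 and DN thus had the highest count for other V genes too, and no direction is read from the pair counts of TRBV4.

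Counted by clonotypes, CD4 T cells shared a smaller part of their TRBV4 clonotypes than of the others. In CD4 T cells 280 of 3393 (8.25%) were found in another library against 13.8% for other V genes (adjusted p = 1.31e-21, Fisher's exact test). In CD8 T cells it was 347 of 2833 (12.2%) against 12.2% (adjusted p = 0.972), and in the DN library 341 of 1417 (24.1%) against 24.1% (adjusted p = 1, exact test). By reads, however, sharing was lower for TRBV4 in these libraries too, by -5.77 percentage points in CD8 and -4.97 in the DN library, where clonotype A was among the shared. Reads of the same clonotype are not independent, so no p-value is given for these differences. The chance of a match also depends on how many TRBV4 clonotypes the other libraries held, and its part in these values was not tested.

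In the DN library, 237 of 1417 in-frame TRBV4 clonotypes (16.7%, 14.9 to 18.8) were found in the CD8 library and 170 (12%, 10.4 to 13.8) in CD4 T cells. For other V genes these were 19.7% and 9.29%. By reads, the DN clonotypes of TRBV4 found in CD8 T cells held 62.6% of in-frame TRBV4 reads, and those found in CD4 T cells 48.6%, against 68.0% and 50.3% for other V genes. Without clonotype A, which was among both, the TRBV4 values were 50.9% and 32.5%. Larger clonotypes were found elsewhere more often. Of TRBV4 clonotypes with 10 or more reads, 52 of 153 (34.0%) in CD4, 12 of 20 (60.0%) in CD8 and 67 of 77 (87.0%) in the DN library were found elsewhere, against 5.57%, 8.95% and 14.9% of those with 1 read. Other V genes had 38.1%, 67.4% and 89.1% for 10 or more reads and 11.0%, 8.39% and 12.2% for 1 read, so this held for them as well.

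Nonproductive TRBV4 clonotypes were shared as well. In the DN library 63 of 410 (15.4%, 12.2 to 19.2) were found in another library, against 9.82% of nonproductive clonotypes with other V genes, and 55 of them were found in the CD8 library and 22 in the CD4 library. In the CD8 library 58 of 364 (15.9%) and in the CD4 library 25 of 348 (7.18%) were found elsewhere, with 7.29% and 5.51% for other V genes.

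The same amino acid CDR3 was seldom written by more than 1 nucleotide sequence in TRBV4. This was so for 169 of 3198 amino acid CDR3s in CD4 (5.29%, 4.56 to 6.11), 124 of 2682 in CD8 (4.62%, 3.89 to 5.48) and 38 of 1377 in the DN library (2.76%, 2.02 to 3.76). For other V genes, which form a far larger pool, the values were 5.28%, 6.90% and 5.19%.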

How the data were processed

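Libraries of TCR mRNA from the 3 T cell subsets of 1 mouse were made with the Takara SMARTer mouse TCR kit, which copies alpha and beta chain mRNA, and the authors assembled the reads into clonotypes with MiXCR. Its version, settings and filters and the gene reference are not given in the sources used here. The deposited tables give each clonotype's count of reads, not normalized. The authors' tables also hold its fraction of all reads of the library, which was checked against the counts and otherwise not used.

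Shares were computed over clonotypes with TRBV and TRBJ genes. The 84, 101 and 78 other clonotypes of CD4, CD8 and DN T cells (103, 102 and 85 reads) were left out. No filter on reads was applied. In frame means no frameshift and no stop codon in the deposited amino acid sequence. Intervals of percentages are 95% Wilson intervals. Those of share ratios are 95% normal intervals on the log ratio, and those of length differences are 95% normal intervals from the standard error. TRBV4 was compared with other V genes, and libraries with each other, by two-sided Fisher's exact tests on clonotypes, adjusted (Benjamini-Hochberg) over 15 tests with a threshold of 0.05. Each alternative was adjusted over its own tests, which were fewer than 15 where only in-frame clonotypes were counted. For counts past a 4-fold difference, 0.5 reads were added. Clonotypes were named if among the 5 largest TRBV4 clonotypes of a library, J genes if among the 3 most or 2 least used, and V genes if among the 3 most like TRBV4. The members and lists were chosen with earlier results of these data known.

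Alternatives were counting reads, a minimum of 2 reads, another reading frame class, merging of clonotypes 1 mismatch apart (at least 10 times the reads), thinning to the reads of the smallest library, and leaving out the largest TRBV4 clonotype, clonotypes whose reads elsewhere were 100-fold or more higher, or sequences without the V start. Clonotypes A, B and E were also left out of DN read counts in turn, chosen after seeing the data. Scripts were tested on simulated data, and 8 of 8 known quantities were recovered within set tolerances at 20000 clonotypes per library. These were share ratios, in-frame, TRBJ2 and length differences, and the merging of clonotypes. Some tolerances were wider than the smaller differences reported here, such as those in the DN to CD8 share and in TRBJ2 use in CD4. TRBD2 use, sharing, stop codons, the V end and clone sizes were not checked in this way. RefSeq genes of GRCm38.p6 gave names and gene order only. Tables were handled with pandas 2.3.3 and NumPy 2.4.6 in Python 3.11.15, tests were made with SciPy 1.17.1, and plots were drawn with matplotlib 3.10.9.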

Additional observations from a re-analysis of the deposited data

How the results depend on the processing

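Of 177 recomputed values, 153 kept their direction and side of the threshold, or stayed within the counting interval where there was no test, 12 moved further than that, 7 turned in sign, 4 lost and 1 gained the threshold. For read counts the threshold was applied to tests over reads, which are not independent of each other. Counting reads gave TRBJ2 differences from other V genes of 0.806 percentage points and TRBD2 differences of -0.508 in CD4, and sharing differences of -5.77 in CD8 and -4.97 in the DN library. CDR3 length differences by reads were 0.124 residues in CD8 and 0.413 in the DN library, the latter with clonotype A included. With at least 2 reads, the in-frame difference in CD4 was -0.924 and the TRBJ2 difference 1.99 (both no longer past the threshold), and the 10 largest clonotypes held 18.9%, 19.6% and 42.0% of TRBV4 reads in the CD4, CD8 and DN libraries, over fewer reads. In frame only, the DN to CD8 share ratio was 1.01 and the 10 largest held 13.6% in CD4 and 9.17% in CD8 T cells. Without the largest clonotype the 10 largest held 12.8%, 7.64% and 21.5%, and without sequences lacking the V start 12.9%, 8.54% and 33.4%. The sharing difference in DN T cells, close to 0 throughout by clonotypes, was 0.0601 after merging and 0.0351 without those sequences. In-frame reads gave a DN to CD8 share ratio of 0.940, and 0.754 without the largest in-frame clonotype, both chosen after seeing the data, as were the alternatives for the fold counts. The cause was not tested for the other changes. The shares against CD4 T cells, the in-frame, TRBJ2 and TRBD2 differences of the CD8 and DN libraries and the sharing difference in CD4 T cells held under each alternative run. No paired analysis was possible because each subset had 1 library, for which reason no library could be left out either. Clonotypes of 1 read, most of each library, limit what sharing can show at this depth.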
